A study of Homo sapiens with 6 samples.

Results

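The E2F transcription factors and their pocket proteins were examined at the RNA level in UWB1.289 cells, a human ovarian cancer cell line that lacks functional BRCA1. The genes were taken by name, E2F1 to E2F8 with RB1 and RBL1, and make up 10 of the 63677 genes in the count table. All 10 were among the 21729 genes with more than 10 counts in total, which were tested. 3 samples were treated for 24 h with 4 µM Olaparib, an inhibitor of the DNA repair enzyme PARP, and 3 received DMSO, the solvent. The sample labels give 4 µM, whereas the text describing the series gives 10 µM. Both groups carry the BRCA1 deficiency, although the genotype label of all 6 samples reads WT, and there was no line with restored BRCA1 among these samples. The labels describe 3 culture dishes per condition and the study's methods call the replicates independent, so the p-values measure the spread between dishes of a single cell line.

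E2F proteins bind DNA at the start of genes needed for DNA replication and cell cycle entry. E2F1, E2F2 and E2F3 are known as activators, and E2F4, E2F5 and E2F6 as repressors of the canonical kind, which bind DNA with a DP partner. E2F7 and E2F8 are atypical repressors that need no DP partner. The pocket proteins, RB (from RB1), p107 (from RBL1) and p130 (from RBL2), hold E2Fs in check until cyclin-dependent kinases phosphorylate them. Several E2F genes are themselves targets of E2Fs, so that the family regulates its own transcription.

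The promoters of E2F1, E2F2, E2F3 and RBL1 are shown because each holds a word to which E2Fs are known to bind. The promoter of E2F7, which is also known as an E2F target, is shown because it holds none of the words searched. The words searched were TTTCCCGC, TTTCGCGC, TTTGCCGC and TTTGGCGC, on both strands, in the 250 bases before each start site. The 150 bases directly before the start are printed 5′ to 3′ on the strand of the gene, with the words or their reverse complements in capitals. The sequences are from RefSeq on GRCh38.p14. They lie at chr20:33686386-33686535 on the minus strand for E2F1, chr1:23531234-23531383 on the minus strand for E2F2, chr6:20401729-20401878 on the plus strand for the first start of E2F3, chr20:37095998-37096147 on the minus strand for RBL1, and chr12:77065570-77065719 on the minus strand for E2F7.
E2F1: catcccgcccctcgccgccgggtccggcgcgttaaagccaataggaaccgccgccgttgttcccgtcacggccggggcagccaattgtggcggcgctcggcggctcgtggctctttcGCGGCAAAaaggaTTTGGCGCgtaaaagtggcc
E2F2: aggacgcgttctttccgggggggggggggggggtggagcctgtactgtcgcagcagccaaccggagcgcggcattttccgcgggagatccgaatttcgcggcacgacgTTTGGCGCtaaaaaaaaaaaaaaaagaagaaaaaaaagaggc
E2F3: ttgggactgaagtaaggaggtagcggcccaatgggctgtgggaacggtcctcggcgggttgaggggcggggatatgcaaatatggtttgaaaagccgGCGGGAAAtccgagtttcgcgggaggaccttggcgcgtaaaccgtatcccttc
RBL1: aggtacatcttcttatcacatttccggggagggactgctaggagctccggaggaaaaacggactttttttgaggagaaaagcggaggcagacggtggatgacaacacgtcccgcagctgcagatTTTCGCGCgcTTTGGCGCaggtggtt
E2F7: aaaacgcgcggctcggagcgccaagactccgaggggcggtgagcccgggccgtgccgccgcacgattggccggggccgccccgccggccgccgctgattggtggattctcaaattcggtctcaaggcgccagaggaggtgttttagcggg

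Of the 10 genes, 8 have an entry in the promoter table, and that of RB1 is for a start within the gene and is not shown. E2F1 and RBL1 held 2 words each, and E2F2 and E2F3 held 1 each. The second start of E2F3, and the promoters of E2F4 and E2F6, held none. At least 1 of these words was found in 979 of 35116 promoters of the same length (2.79%), and at least 2 were found in 43 of them (0.122%). Counted per gene, 928 of all 27305 genes with an entry (3.4%) held a word. Among 45 other E2F target genes of the G1/S transition with an entry, 17 (37.8%) held a word. A match describes the letters only and does not show that an E2F bound there in these cells. A promoter without these words may still be bound by an E2F.

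The libraries held 35360458 to 39640775 counts. Of all genes tested, 730 passed at an adjusted p under 0.05, which is 3.36%, with 467 higher and 263 lower with Olaparib. This count was 439 without Olaparib replicate 3, 398 without DMSO replicate 2 and 401 without DMSO replicate 3. Among the 13121 genes with a mean normalized count of at least 50, which includes all 10 E2F and pocket protein genes, 5.30% passed. Of the epithelial ovarian markers, 11 of 12 were tested and their summed normalized counts were 497134 to 523079 with Olaparib and 489819 to 507072 with DMSO. 2 of them passed, both higher with Olaparib. PAX8 had a log2 fold change of 0.10 (edgeR adjusted p = 0.0399) and did not pass with upper quartile scaling (edgeR adjusted p = 0.0604), or without Olaparib replicate 2 or 3 or any DMSO replicate, at adjusted p from edgeR of 0.0609 to 0.206. CLDN4 had a log2 fold change of 0.14 (edgeR adjusted p = 0.0271) and did not pass without Olaparib replicate 2 or 3 or DMSO replicate 1 or 2, at adjusted p from edgeR of 0.0641 to 0.175. Of these epithelial markers WT1 was at 8 counts in all. Markers of immune, endothelial and stromal cells summed to 1776 to 1817 with Olaparib and 1777 to 1903 with DMSO. 7 of those 12 were tested, PECAM1 and LUM were at 0 in every sample, and VWF, an endothelial gene, was higher with Olaparib, at 67.4 ± 3.17 against 41.8 ± 1.96 normalized counts (SD, n = 3 each, edgeR adjusted p = 0.0106). CDH5, another endothelial gene, made up most of that sum, with 1526 ± 28.3 normalized counts with Olaparib and 1606 ± 63.6 with DMSO (log2 fold change -0.075, edgeR adjusted p = 0.442). The part of these markers in the results below was not tested.

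To ask whether Olaparib changed the RNA of the E2F network, each gene was compared between the groups. None of the 10 genes passed by edgeR or by limma voom. DESeq2 gave an adjusted p for 9 of them, of which 0 passed, and none for E2F2. At an unadjusted p under 0.05 in edgeR, 5 of the 10 were lower with Olaparib (E2F1, E2F2, E2F5, E2F6 and E2F8) and 1 was higher (RBL1), and 2 genes in DESeq2 and 5 in limma voom reached that level. Over all genes tested, 6.97% were lower and 7.83% higher at that level, and 9.03% were lower among genes with a mean normalized count of at least 50. In the same 5 genes every Olaparib sample lay below every DMSO sample, which was so for 9.29% of all genes tested. No member had every Olaparib sample above every DMSO sample, which was so for 10.0% of all genes. The differences were small. In 9 of the 10 genes the 95% interval of the log2 fold change lay within a change of 1.2-fold in either direction, and E2F2 was the exception. With 3 against 3 samples, an exact permutation test of a single gene cannot give a two-sided p below 0.1. The RNA is from bulk cultures, in which fewer cells in a phase of the cell cycle and less RNA per cell cannot be told apart.

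**Figure D1:**
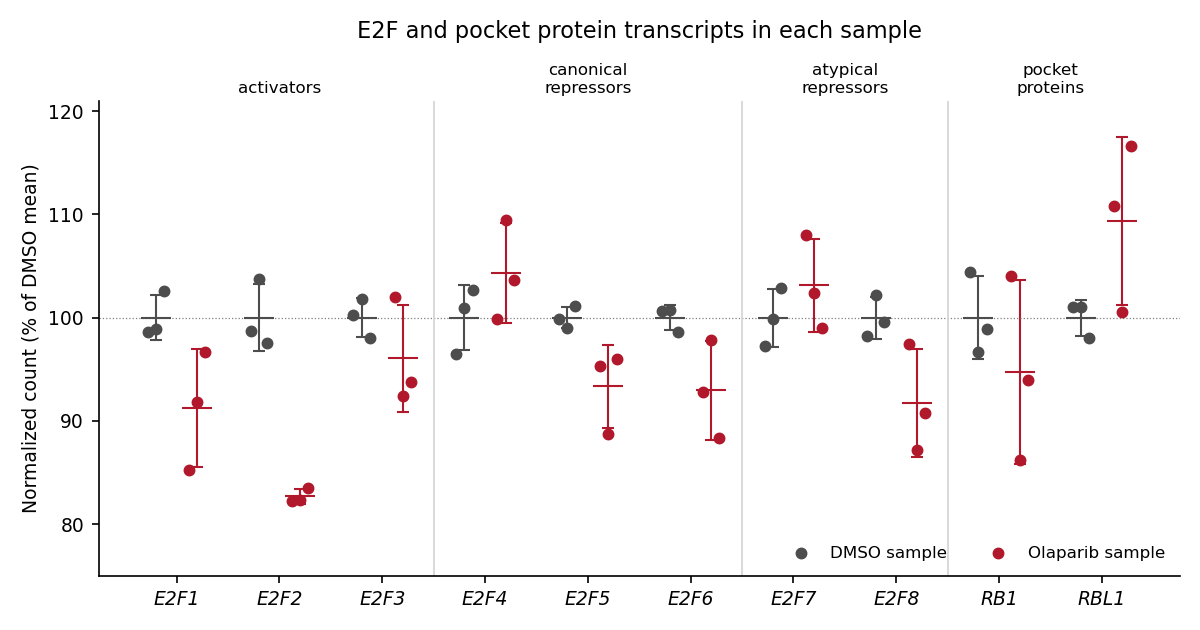
Normalized counts of each E2F and pocket protein gene in the 3 Olaparib and the 3 DMSO samples, as a percentage of the DMSO mean. Each sample is 1 point, and lines mark the group mean with bars for the SD. In E2F1, E2F2, E2F5, E2F6 and E2F8 all Olaparib points lie below all DMSO points, and in the other genes the groups overlap.

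The 3 activator genes all had negative fold changes with Olaparib, and none passed the test. E2F1 (ENSG00000101412, chromosome 20, 33675477 to 33686385, minus strand, GRCh38) encodes the activator best known for driving S phase entry. Its normalized counts were 1147, 1235 and 1300 with Olaparib and 1326, 1331 and 1379 with DMSO. The groups did not overlap, and Olaparib replicate 1 was the lowest of the 6. The means were 1227 ± 77.0 and 1345 ± 29.6 (SD, n = 3 each), which gave a log2 fold change of -0.13 (SE 0.047, 95% interval -0.228 to -0.0369, edgeR adjusted p = 0.131), or -8.77%. Without Olaparib replicate 1 the log2 fold change was -0.084, and without Olaparib replicate 3 it was -0.18.

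E2F2 (ENSG00000007968, chromosome 1, 23506438 to 23531233, minus strand) encodes an activator that binds RB, as do E2F1 and E2F3. It had 87.0, 87.2 and 88.5 normalized counts with Olaparib and 105, 110 and 103 with DMSO. All 3 Olaparib samples were alike and below the DMSO samples. The log2 fold change of -0.27 was the farthest from 0 among the 10 genes, and its interval was also the widest (SE 0.123, 95% interval -0.523 to -0.0243, edgeR adjusted p = 0.269). Only 581 reads in total stood behind it, fewer than for any other member. Leaving out each sample in turn kept its log2 fold change between -0.29 and -0.25.

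E2F3 (ENSG00000112242, chromosome 6, 20401879 to 20493714, plus strand) gives rise to 2 proteins, E2F3a and E2F3b, from separate start sites, and the gene count sums them. Its normalized counts were 2674, 2424 and 2458 with Olaparib and 2628, 2668 and 2571 with DMSO. Olaparib replicate 1 was the highest of the 6 samples while the other Olaparib samples were the lowest, so the groups overlapped. The log2 fold change was -0.058 (SE 0.0414, 95% interval -0.142 to 0.0261, edgeR adjusted p = 0.568), and it was -0.10 without Olaparib replicate 1 and -0.031 without Olaparib replicate 2. Thus the sample with the lowest E2F1 had the highest E2F3.

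Among the canonical repressors, E2F4 differed in sign from E2F5 and E2F6. E2F4 (ENSG00000205250, chromosome 16, 67192155 to 67198918, plus strand) encodes the repressor that pairs with p107 and p130 in resting cells. Its normalized counts were 2172, 2380 and 2254 with Olaparib and 2097, 2195 and 2232 with DMSO, and the groups overlapped. The log2 fold change was 0.061 (SE 0.0421, 95% interval -0.0251 to 0.146, edgeR adjusted p = 0.555). It was 0.093 without Olaparib replicate 1, 0.026 without Olaparib replicate 2 and 0.037 without DMSO replicate 1.

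E2F5 (ENSG00000133740), which encodes another partner of p130, had 1026, 955 and 1033 normalized counts with Olaparib and 1075, 1066 and 1088 with DMSO. The groups did not overlap, and the log2 fold change was -0.099 (SE 0.0462, 95% interval -0.193 to -0.0052, edgeR adjusted p = 0.296), or -0.064 without Olaparib replicate 2. Genes on the other strand cover 18.8% of its exonic bases, and the strand setting of the counting is not named, so reads of these genes may be among its counts. E2F6 (ENSG00000169016, chromosome 2, 11444375 to 11466177, minus strand) encodes a repressor that lacks the part which binds pocket proteins and works within a Polycomb complex. It had 621, 655 and 591 normalized counts with Olaparib and 674, 675 and 661 with DMSO, again without overlap. Its log2 fold change was -0.11 (SE 0.0511, 95% interval -0.209 to -0.0015, edgeR adjusted p = 0.325). The Olaparib samples of E2F6 spread more widely than the DMSO samples, with an SD of 32.0 against 7.96.

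The atypical repressors had opposite signs. E2F7 (ENSG00000165891, chromosome 12, 77021248 to 77065569, minus strand), a target of both E2F and p53 that shuts down E2F-driven transcription, had 1526, 1447 and 1400 normalized counts with Olaparib and 1375, 1412 and 1454 with DMSO. The groups overlapped, with a log2 fold change of 0.044 (SE 0.0446, 95% interval -0.0471 to 0.134, edgeR adjusted p = 0.723). It was 0.011 without Olaparib replicate 1, 0.071 without Olaparib replicate 3 and 0.026 without DMSO replicate 1. E2F8 (ENSG00000129173, chromosome 11, 19224063 to 19241620, minus strand), the close relative with which E2F7 forms dimers, had 586, 524 and 546 normalized counts with Olaparib and 591, 615 and 599 with DMSO. These groups did not overlap, and the log2 fold change was -0.12 (SE 0.0539, 95% interval -0.234 to -0.0146, edgeR adjusted p = 0.249). Within each sample, the log2 level of E2F7 minus that of E2F8 was 1.379, 1.464 and 1.357 with Olaparib and 1.217, 1.198 and 1.278 with DMSO. This difference of levels was thus larger in every Olaparib sample, by 0.17 on average. It restates the opposite signs of these genes, and how often other gene pairs separate the groups was not tested.

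RB1 (ENSG00000139687, chromosome 13, 48303744 to 48599436, plus strand), the retinoblastoma tumor suppressor, had 3262, 2704 and 2945 normalized counts with Olaparib and 3275, 3032 and 3103 with DMSO. Olaparib replicate 1 lay with the DMSO samples, and the groups overlapped. The log2 fold change was -0.078 (SE 0.0470, 95% interval -0.174 to 0.0174, edgeR adjusted p = 0.470). It moved with the samples included, to -0.15 without Olaparib replicate 1 (edgeR adjusted p = 0.0550) and to -0.015 without Olaparib replicate 2 (edgeR adjusted p = 0.935).

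RBL1 (ENSG00000080839, chromosome 20, 36996349 to 37095997, minus strand), which encodes p107 and is itself an E2F target, was the member with the highest fold change. Its normalized counts were 979, 888 and 1030 with Olaparib and 892, 892 and 866 with DMSO. Olaparib replicates 1 and 3 lay above all DMSO samples, and Olaparib replicate 2 lay among them. The means were 966 ± 71.7 and 883 ± 15.4 (SD, n = 3 each), which gave a log2 fold change of 0.13 (SE 0.0506, 95% interval 0.0265 to 0.232, edgeR adjusted p = 0.184). Without Olaparib replicate 2 the log2 fold change was 0.19 and RBL1 passed the test (edgeR adjusted p = 0.0320), and without Olaparib replicate 3 it was 0.078 (edgeR adjusted p = 0.633). The log2 level of RB1 minus that of RBL1 was 1.736, 1.605 and 1.515 with Olaparib and 1.875, 1.763 and 1.841 with DMSO. It was lower in every Olaparib sample, by 0.21 on average. As with E2F7 and E2F8, this restates the opposite signs of the genes, and other gene pairs were not tested.

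**Figure D2:**
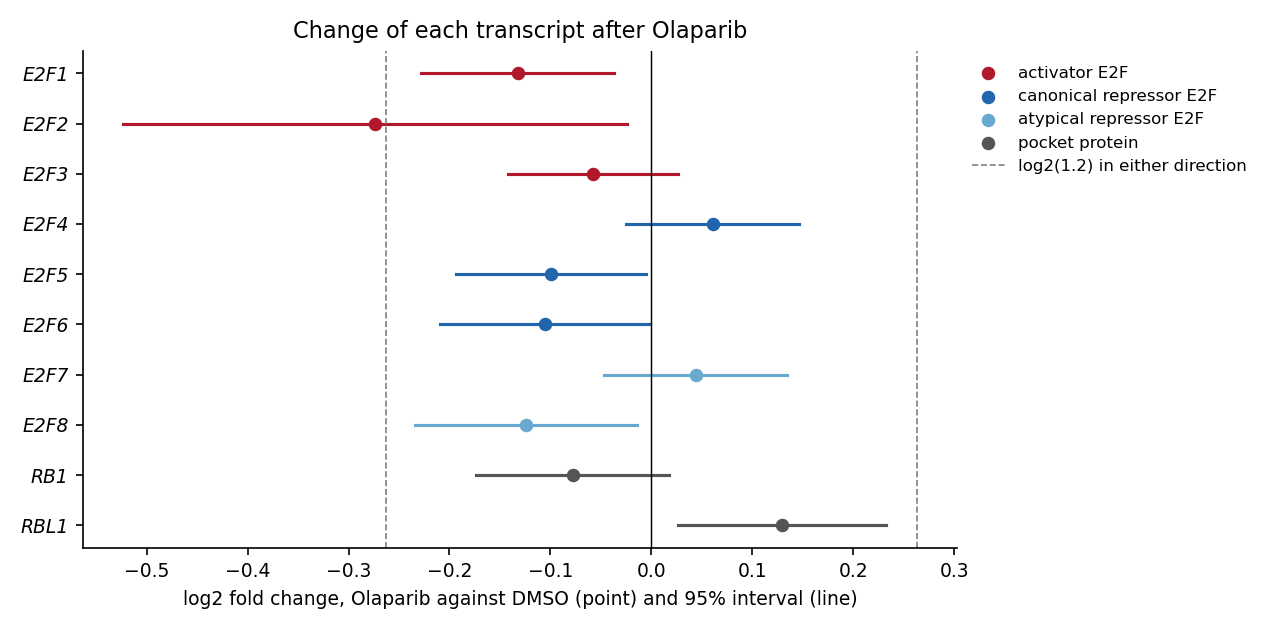
Log2 fold change of each gene, Olaparib against DMSO, from edgeR, with the 95% interval as a bar. The intervals of E2F1, E2F2, E2F5, E2F6 and E2F8 lie below 0 and that of RBL1 above 0, while no gene has an adjusted p under 0.05.

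The E2F genes differed more from each other in level than they did between the groups. In normalized counts per kilobase of exon, E2F4 was the highest at 618 ± 26.3 (mean ± SD over all 6 samples), apart from the next gene. E2F3 (495 ± 20.7), E2F1 (478 ± 30.9) and RB1 (475 ± 33.3) followed and were not separated from each other by their samples. E2F7 stood at 228 ± 8.48, below RB1 by 2.08-fold. E2F5 (173 ± 8.06), E2F6 (159 ± 8.16), RBL1 (155 ± 10.9) and E2F8 (139.5 ± 8.35) formed a run in which neighbours overlapped. E2F2 was the lowest at 17.7 ± 1.88, 7.88-fold under E2F8. The length used bears on this order. With the length of the canonical transcript in place of all exon bases, E2F4 stayed the highest at 1053 and E2F2 the lowest at 18.6. E2F5 moved from rank 6 to rank 3, at 530 counts per kilobase, and RB1 from rank 4 to rank 2, at 640. E2F3 moved from rank 2 to rank 4, E2F1 from rank 3 to rank 5 and E2F7 from rank 5 to rank 6.

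**Figure D3:**
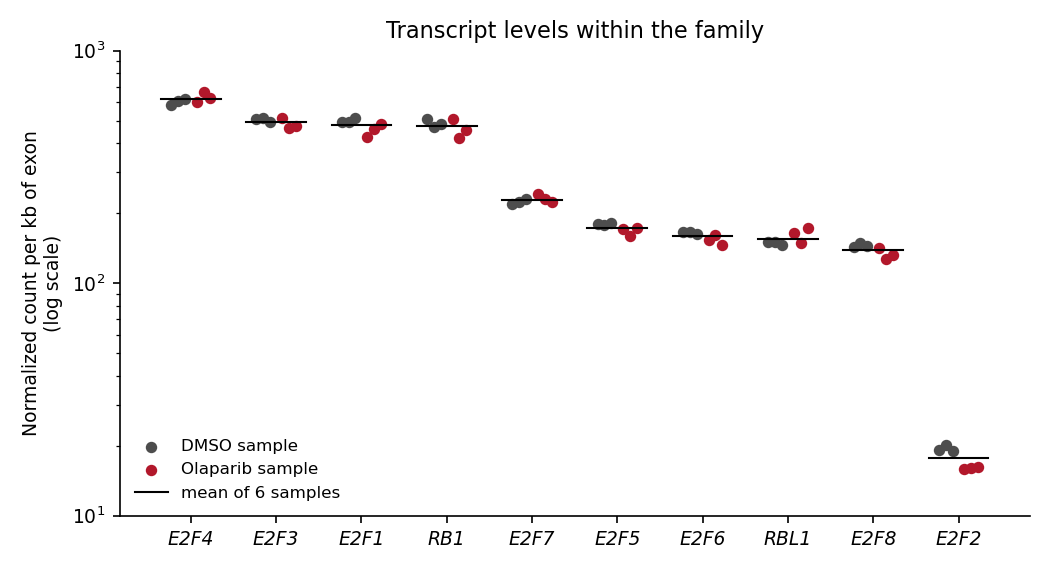
Level of each gene in normalized counts per kilobase of exon, on a log axis, with 1 point per sample in both groups. E2F4 is the highest and E2F2 the lowest, and the points of Olaparib and DMSO lie close together within each gene compared with the distance between E2F2 and the rest.

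Activators and repressors were then compared within each sample. All 3 activators had a negative fold change, with a median of -0.13, and 2 of them were lower at an unadjusted p under 0.05. Of the 5 repressors, 3 had a negative and 2 a positive fold change, with a median of -0.099, and 3 were lower at an unadjusted p under 0.05. The median over all genes tested was -0.0042. The signs of the estimates differed among the repressors and not among the activators, while the medians of both classes lay below that of all genes. The intervals of the repressors E2F4 (-0.0251 to 0.146) and E2F7 (-0.0471 to 0.134) and of the activator E2F3 (-0.142 to 0.0261) included 0. The signs of these genes are therefore not resolved, and whether the classes differ in sign was not tested. The mean log2 level of the activators minus that of all 5 repressors was -0.69, -0.68 and -0.62 with Olaparib and -0.54, -0.54 and -0.58 with DMSO. These values did not overlap, and the group means were -0.66 ± 0.040 and -0.55 ± 0.020 (SD, n = 3 each), a difference of -0.11. Against the canonical repressors alone the difference was -0.11, and against the atypical repressors alone it was -0.11. The 3 differences share the same activator mean, so they are not independent of each other. How often other sets of genes separate the groups in this way was not tested. Leaving out each sample in turn, the difference was between -0.13 and -0.094 against all repressors, between -0.12 and -0.086 against the canonical ones, and between -0.14 and -0.072 against the atypical ones, where the value nearest to 0 was that without Olaparib replicate 1. Each gene had the same weight in the mean log2 levels. E2F2, with 581 counts in total and a log2 fold change of -0.27, thus weighed as much as E2F1. E2F1 and E2F3 had smaller falls, with log2 fold changes of -0.13 and -0.058, so the difference would be smaller without E2F2. Its size with E2F2 or any other gene left out was not computed. With the counts of each class summed before taking the log, the difference against all repressors was -0.080. The genes were chosen with results of these data known, so no p is given for it.

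By level per kilobase, the activators made up 42.2, 41.3 and 42.8% of the E2F transcripts with Olaparib and 44.1, 43.7 and 43.4% with DMSO. The means were 42.1 ± 0.770% and 43.7 ± 0.373% (SD, n = 3 each), a difference of -1.62 percentage points. This share used all exon bases and depends on that choice. With the canonical transcript length, the repressors E2F4 and E2F5 stood at 1053 and 530 counts per kilobase, against 618 and 173. The share was not computed with that length. Protein amounts and phosphorylation of RB were not analysed here, and RNA levels do not show the activity of an E2F.

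**Figure D4:**
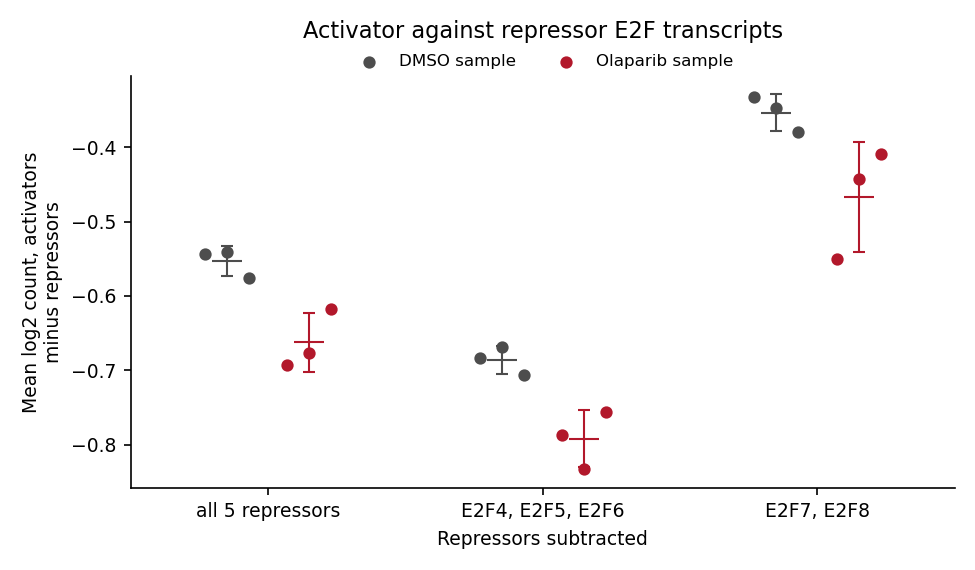
Mean log2 normalized count of the activators E2F1, E2F2 and E2F3 minus that of the repressors in each sample, against all, canonical and atypical repressors. Lines mark the group mean with bars for the SD. The Olaparib samples lie below the DMSO samples in each of the 3 comparisons, by 0.11 on average. The 3 comparisons share the same activator mean and are not independent.

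None of the partners tested passed. TFDP1, the main DP partner, had 5476 ± 76.0 normalized counts with Olaparib and 5373 ± 79.6 with DMSO (SD, n = 3 each), which gave a log2 fold change of 0.027 (edgeR adjusted p = 0.763). TFDP2, the other DP partner tested, had a log2 fold change of 0.045 (edgeR adjusted p = 0.660), and TFDP3 had 4 counts in all and was not tested. RBL2, which encodes p130, had 3468 ± 129 and 3453 ± 102 normalized counts, with a log2 fold change of 0.0062 (edgeR adjusted p = 0.963) whose sign depended on the scaling. For the lists that follow, the background is that 3.36% of all genes tested passed. Among genes with a mean normalized count of at least 50 it was 5.30%. Of the 10 genes of the Polycomb complex that E2F6 joins, 1 passed the test. This was MGA, its DNA-binding scaffold, at 2278 ± 76.6 against 1911 ± 70.6 normalized counts (log2 fold change 0.25, edgeR adjusted p = 1.7e-04). Of the 6 genes of the MuvB complex and its partner B-MYB, MYBL2, which encodes B-MYB, passed with 10719 ± 340 against 9791 ± 89.2 normalized counts (log2 fold change 0.13, edgeR adjusted p = 0.00681). MYBL2 did not pass without Olaparib replicate 2 (edgeR adjusted p = 0.0570) or without DMSO replicate 2 (edgeR adjusted p = 0.0684).

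Of 15 genes for the kinases that phosphorylate pocket proteins, their cyclins and their inhibitors, 1 was higher and 2 were lower, beside 467 higher and 263 lower of the 21729 genes tested. The cyclins E, which activate CDK2 at the G1/S transition, went in opposite directions. CCNE1 rose from 3196 ± 51.6 to 3580 ± 31.3 normalized counts with Olaparib (SD, n = 3 each, log2 fold change 0.16, SE 0.0360, edgeR adjusted p = 0.00580). CCNE2 fell from 1194 ± 76.2 to 920 ± 89.1 (log2 fold change -0.38, SE 0.0554, edgeR adjusted p = 3.6e-05), and genes on the other strand cover 37.1% of its exonic bases. CCND2, a D-type cyclin that works with CDK4 and CDK6, fell from 14640 ± 298 to 13237 ± 485 (log2 fold change -0.15, edgeR adjusted p = 0.00229). CCND1, its relative, had 39234 ± 704 and 40872 ± 444 (log2 fold change -0.059, edgeR adjusted p = 0.262). CDKN1A, which encodes the CDK inhibitor p21 and is a target of p53, had 143 ± 8.97 normalized counts with Olaparib and 118 ± 11.9 with DMSO (log2 fold change 0.28, edgeR adjusted p = 0.208). Of 20 p53 target genes, 1 was lower and none was higher. ZMAT3, the lower gene, had a log2 fold change of -0.21 (edgeR adjusted p = 0.0128), and did not pass without Olaparib replicate 2 (edgeR adjusted p = 0.104), Olaparib replicate 3 (edgeR adjusted p = 0.0565) or DMSO replicate 1 (edgeR adjusted p = 0.182).

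Of 55 E2F target genes of the G1/S transition other than the members, 54 were tested, and 2 were higher and 5 lower with Olaparib. Over all genes tested, 467 were higher and 263 lower, and 3.36% passed. Among genes with a mean normalized count of at least 50, 5.30% passed. Whether the list differed from all genes was not tested. UHRF1 was not analysed here. The median log2 fold change of the list was -0.023, against -0.0042 over all genes tested, with 22 positive and 32 negative values. The higher genes were CCNE1 and MYBL2, given above. After CCNE2, the largest falls were in MCM6, part of the replicative helicase, from 3839 ± 53.9 to 3289 ± 33.7 normalized counts (log2 fold change -0.22, edgeR adjusted p = 9.9e-05), and in UNG, which removes uracil from DNA, from 4706 ± 151 to 4084 ± 39.5 (log2 fold change -0.20, edgeR adjusted p = 2.2e-04). The other lower genes, named after their values were seen, were RRM2, a subunit of ribonucleotide reductase, and EZH2, a histone methyltransferase. RRM2 had a log2 fold change of -0.11 (edgeR adjusted p = 0.0246) and did not pass without Olaparib replicate 2 or 3 or DMSO replicate 2 or 3, at adjusted p from edgeR of 0.0823 to 0.154. EZH2 had a log2 fold change of -0.12 (edgeR adjusted p = 0.0346) and did not pass without any Olaparib replicate or DMSO replicate 2 or 3, at adjusted p from edgeR of 0.0526 to 0.180. Without DMSO replicate 2, 4 of the 54 genes passed.

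**Figure D5:**
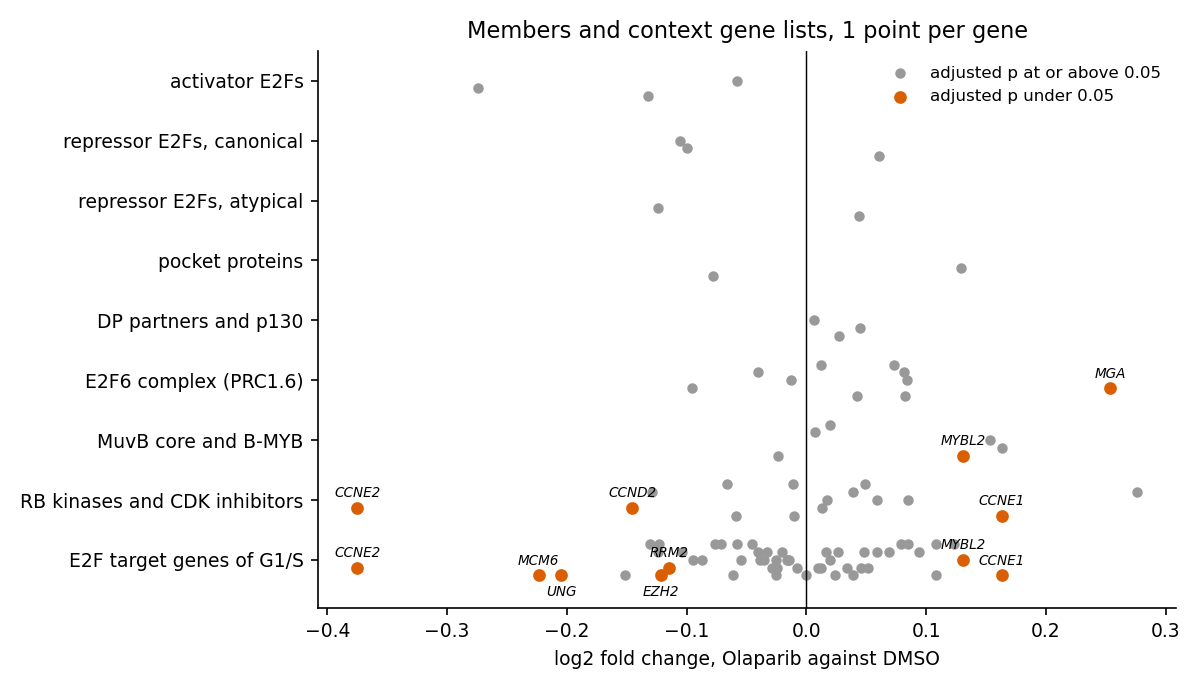
Log2 fold change, Olaparib against DMSO, of each tested member and of the genes of the surrounding lists, with 1 point per gene and genes with an adjusted p under 0.05 named and in color. CCNE1, CCNE2 and MYBL2 belong to 2 lists and appear in each, and the members are drawn only in the rows of their own classes.

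E2F3, E2F4 and E2F6 have pseudogenes of similar sequence, and the 7 of them in the table had at most 2 counts each over all 6 samples. How reads that match both a gene and its copy were counted was not tested. No other gene overlaps the exons of 7 of the 10 members. Apart from E2F5, RBL1 has 3.58% of its exonic bases under another gene, and E2F8 has less.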

How the data were processed

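RNA was sequenced from 3 Olaparib and 3 DMSO samples. The authors deposited whole-number read counts per gene, without normalization. They mapped reads with STAR and assigned them to genes with featureCounts, per the labels and the study's methods, and the strand setting is not named. The reads were mapped to GRCh38, and whether PCR duplicates were removed before counting is not stated. All 6 samples were used, with 35360458 to 39640775 counts, grouped by their labels. Replicates of a group differed by more than counting noise.

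Genes with more than 10 counts in total were scaled by TMM and tested with edgeR 4.0.16 (quasi-likelihood) in R 4.3.3, with Benjamini-Hochberg adjustment over all of them. A gene passed at an adjusted p under 0.05. A normalized count is the count divided by its effective library size and multiplied by the mean of these sizes. Standard errors were derived from the F statistic, and intervals from its degrees of freedom. The scripts were tested on simulated data. Levels per kilobase used all exon bases in GENCODE release 44, in place of the planned lengths from the deposited table, which holds none. Per-sample differences of log2 levels used a prior count of 1. Promoters came from RefSeq, and E2F5 and E2F8 have no entry in the table used.

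The named genes were all members, the genes of each list that passed (where more than 6 passed, the 3 largest rises and falls), the partners RBL2, TFDP1 and TFDP2, and CDKN1A, CCND1 and CCNE1. The members and the lists, which were written from general knowledge, were chosen with earlier results of these data known. Alternatives were DESeq2 1.42.0, limma voom (limma 3.58.1), 2 other scalings, 2 other filters, a replicate block and leaving out each sample. The canonical transcript length, and the background of genes with a mean normalized count of at least 50, were added after the data were seen. The differences E2F7 minus E2F8 and RB1 minus RBL1, the activator share per kilobase and the promoter words were not in the written plan.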

Additional observations from a re-analysis of the deposited data

How the results depend on the processing

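No E2F or pocket protein gene changed sign under any of the 13 alternatives, and the alternatives not named here left their calls as they were, except that DESeq2 gave no adjusted p for E2F2. RBL2 changed sign with upper quartile scaling (log2 fold change -0.0030), and ranged from -0.023 to 0.025 when each sample was left out in turn. When each sample was left out, 398 to 870 of all genes passed against 730, 178 to 237 also passed the fold limit of 1.2 against 262, 0 to 1 of the members passed, 7 to 14 of the genes of the context lists (markers apart) passed against 10, and 4 to 9 of the E2F target genes passed against 7. The member that passed was RBL1, without Olaparib replicate 2. With DESeq2, 141 genes passed with the fold limit. With the canonical transcript length, levels per kilobase were 1053 for E2F4 (618 with all exon bases), 640 for RB1 (475), 530 for E2F5 (173), 251 for E2F7 (228), 200.1 for E2F6 (159) and 156 for E2F8 (139.5). The cause of these differences was not tested. No scaling moved the median of all genes by more than 0.1. Precision is limited by 3 samples per group and, for E2F2, by 581 counts in total.

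Samples of the 2 groups share replicate numbers, but same-numbered samples did not deviate together from their group means, with correlations of -0.156, 0.184 and -0.217 over 13121 genes, so the numbers were not taken to pair them. With the replicate number as a block, 1322 of all genes, 1 of the members (E2F1, edgeR adjusted p = 0.0460), 17 genes of the context lists and 13 E2F target genes passed.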
